A study of Mus musculus with 8 samples.

Results

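Cathepsins are the proteases of the endosome and lysosome. Their transcripts were compared here between lung cells with high and with low signal of a protease-cleavable probe given in vivo. The set was a list of 10 genes, chosen by name (Ctsa, Ctsb, Ctsc, Ctsd, Ctse, Ctsh, Ctsk, Ctsl, Ctss and Ctsz), out of 27179 genes in the deposited count table. All 10 passed the filter on low counts, as did 15583 genes in all. The libraries came from lungs of Eml4-Alk mice (strain C57BL/6 in the labels, female C57BL/6J in the study's methods), a model of ALK-positive lung adenocarcinoma made by an adenovirus whose Cas9 and guide RNAs join the Eml4 and Alk genes. Mice were 18 to 22 weeks old, at 11 to 12 weeks after tumor induction, and received 4.5 nmol of QZ1-(PEG2K) by vein 2 h before the lungs were removed. QZ1 is a quenched, Cy5-labeled probe that becomes fluorescent when its peptide linker is cut. By the study's design the freed part can tag cells near the cut, so a QZ1-hi cell need not have cut the probe itself. Live cells lacking the blood cell markers CD45 and CD11b were sorted by that signal into a QZ1-hi and a QZ1-lo population, with at least 100000 cells each, and 4 libraries of each were sequenced as bulk RNA-seq. Both populations thus came from mice of the same strain that had received the same adenovirus and probe, and were separated by the sort. The share of cells with the Eml4-Alk fusion in each population was not given in the sources used here. No untreated or probe-free library was part of the comparison, and no purity of the sorted fractions was given in the sources used here. Replicate numbers below follow the order of deposition and only name a library. The labels do not say whether libraries of the same number belong together, and no pairing was used. Whether libraries of a population came from separate mice was not given, so p-values measure the spread between these libraries, which may be partly technical.

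Cathepsins are made as inactive precursors, tagged with mannose 6-phosphate in the Golgi, and delivered to acidic compartments where the propeptide is removed. They fall into 3 chemical classes. Ctsd and Ctse encode aspartic proteases, Ctsa a serine carboxypeptidase, and the other genes cysteine proteases of the papain type. Cathepsins degrade proteins taken up or made by the cell, process antigens for MHC class II, and can be secreted to cut elastin and collagen. In the lung they are best known from alveolar macrophages, and cathepsin H also from alveolar type 2 cells, where it trims surfactant protein precursors.

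Sequence around the start sites is shown for the 4 members with either of the motifs described below. Their levels moved closely together over the libraries (given further on). So did that of Ctsz, with neither motif in its window (Pearson's r of log2 CPM between 0.80 and 0.96 with these 4). RefSeq promoter windows of GRCm38.p6, from 250 bases before to 50 bases after the start site, were found for 7 of the 10 genes, in 8 windows, Ctsa having 2. Capitals mark exact matches, on either strand, to an extended E-box (TCACGTGA, the core of sites bound by the lysosomal regulators of the MiT/TFE family) or to a site of the macrophage factor PU.1 (GAGGAAGT, or ACTTCCTC on the other strand). The stretches for Ctsa and Ctsd are limited to 30 bases around the matches. They lie within the annotated gene spans, and the stretches for Ctss and Ctsc run past the annotated gene starts.
Ctsa, chr2:164833758-164833787, + strand: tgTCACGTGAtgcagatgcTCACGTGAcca
Ctsd, chr7:142387908-142387937, − strand: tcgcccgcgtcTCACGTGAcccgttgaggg
Ctss, chr3:95526606-95526805, + strand: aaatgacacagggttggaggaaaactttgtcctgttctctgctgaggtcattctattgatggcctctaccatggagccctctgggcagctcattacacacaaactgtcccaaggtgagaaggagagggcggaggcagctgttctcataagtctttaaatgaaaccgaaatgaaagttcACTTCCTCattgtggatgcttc
Ctsc, chr7:88277905-88278104, + strand: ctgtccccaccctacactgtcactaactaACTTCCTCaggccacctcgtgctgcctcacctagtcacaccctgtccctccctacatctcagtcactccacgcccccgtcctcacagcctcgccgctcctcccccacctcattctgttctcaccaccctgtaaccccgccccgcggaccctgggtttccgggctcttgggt

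The extended E-box began at −13 and +5 of the second Ctsa window and at −99 of Ctsd, and stood in 0.97% of all 32851 promoter windows. The PU.1 letters began at −2 of Ctss and −151 of Ctsc and stood in 3.2% of all windows. Neither motif was in the windows of Ctsk, Ctsl or Ctsz. These matches are descriptions of letters in a window, and no binding was measured.

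Total counts were between 18380918 and 26847938 per library, and mitochondrial and ribosomal RNA genes took 43.7%, 62.8%, 52.0% and 65.6% of them in QZ1-hi replicates 1 to 4 and 34.0%, 53.2%, 37.0% and 43.3% in QZ1-lo replicates 1 to 4. The part of these RNAs in the values below was not tested beyond an alternative without those genes. A level of 3 counts corresponds to 0.0894 to 0.179 CPM, which covers counting error only, and every listed cathepsin had at least 26 counts in every library.

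No cathepsin on the list passed the test between the populations. At an adjusted p under 0.05 (quasi-likelihood test of edgeR, Benjamini-Hochberg over the 15583 genes), 0 of the 10 genes were higher and 0 were lower in QZ1-hi. Over all genes tested, 9.88% were called higher, 8.21% lower and 18.1% either way. At an unadjusted p under 0.05, 1 of the 10 cathepsins (Ctsh) stood out, where the share of all genes was 28.9%. DESeq2 and limma voom each called Ctsh lower and no other member. The estimates were above 0 for 8 genes and below 0 for Ctsh and Ctse, with a median log2 ratio (the fitted log2 fold change, QZ1-hi over QZ1-lo) of 0.28 over the 10 genes and 0.02 over all genes tested. The sign of the 8 rested on the scaling. With scaling by library size alone the median over all genes moved to −0.44, and each of the 8 estimates turned to below 0, between −0.31 (Ctsz) and −0.0017 (Ctsl), all still above that median. The 95% intervals held 0 for 9 genes, and reached 2.44-fold for Ctsk and 0.309-fold for Ctse, so that differences up to these sizes were not excluded for these genes. In bulk samples, a change in the number of cells of a type cannot be told apart from a change in RNA per cell. The plots of CPM by library and of log2 ratios show the members' values.

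**Figure D1:**
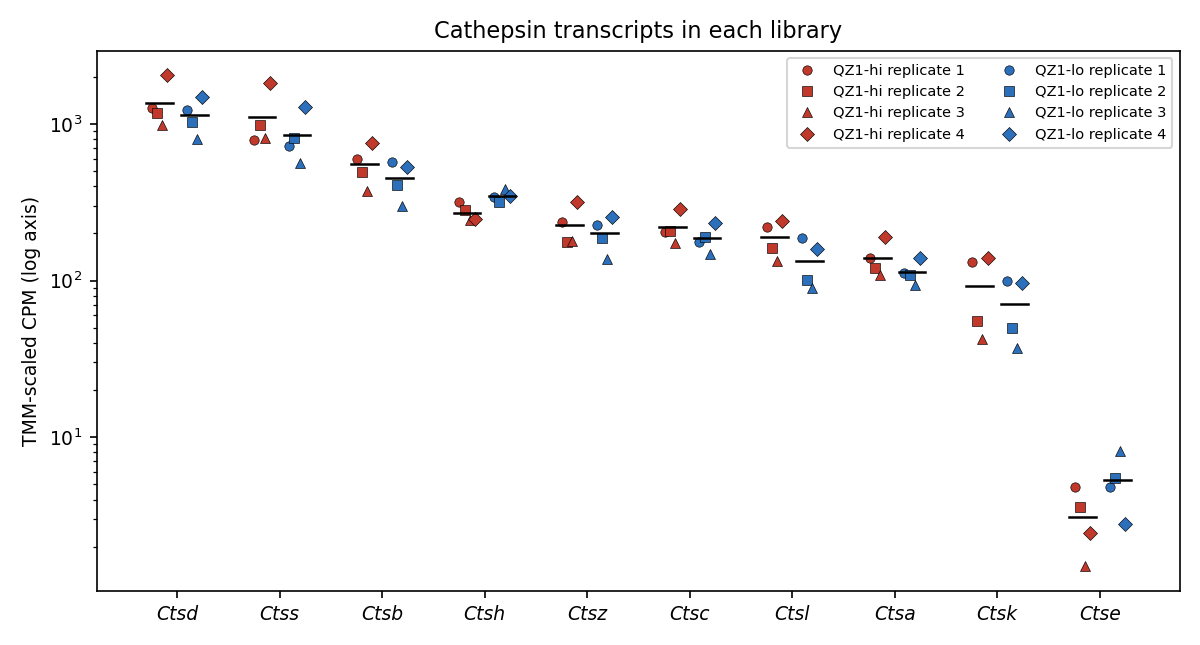
TMM-scaled CPM (log axis) of the 10 cathepsin genes in each of the 4 QZ1-hi (red) and 4 QZ1-lo (blue) libraries, with marker shapes for the replicate numbers, which only name libraries, and black lines for the population means. Ctsd is at 801 CPM or more and Ctse at 8.14 CPM or less in every library (CPM are not divided by gene length), and the populations overlap for every gene other than Ctsh.

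**Figure D2:**
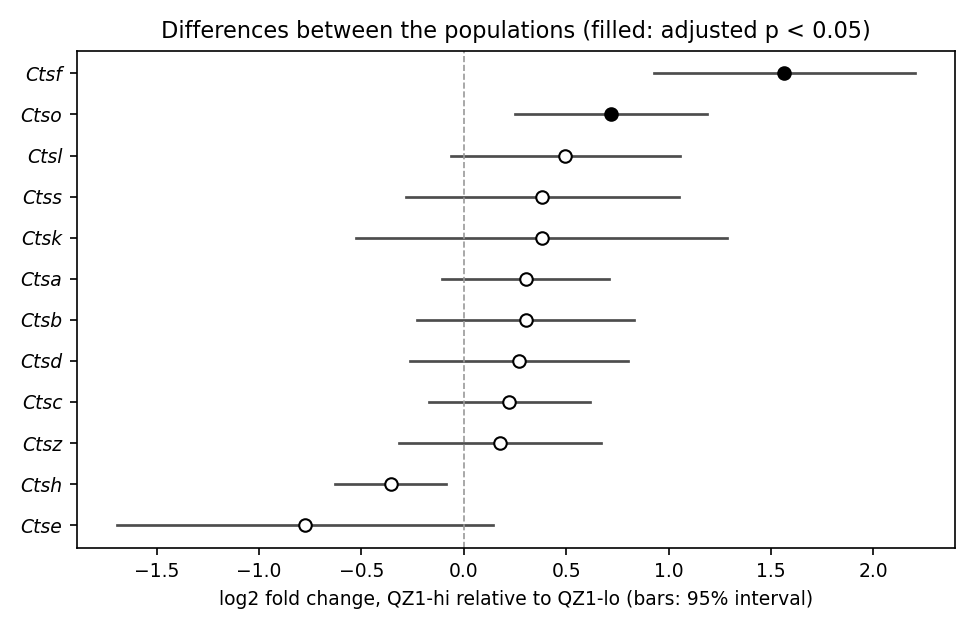
Log2 ratio of QZ1-hi relative to QZ1-lo with its 95% interval for the 10 cathepsins and for Ctsf and Ctso, where filled points passed an adjusted p under 0.05 in edgeR. The intervals of all listed cathepsins other than Ctsh hold 0, and Ctsf stands at 1.57 and Ctso at 0.72. Scaling by library size alone turned the 8 positive estimates of the listed cathepsins to below 0.

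Ctsh (Entrez Gene 13036, chr 9, 90054152 to 90076089 on mm10) encodes the aminopeptidase cathepsin H. It had 316, 281, 244 and 246 CPM in QZ1-hi replicates 1 to 4 and 343, 317, 383 and 349 CPM in QZ1-lo replicates 1 to 4. Every QZ1-hi library lay below every QZ1-lo library, which was so for 10.7% of all genes tested, while 11.9% had every QZ1-hi library above. The means were 272 ± 34.0 CPM and 348 ± 27.4 CPM (SD, n = 4 each), and the closest libraries of the populations, QZ1-hi replicate 1 and QZ1-lo replicate 2, were 315.6 and 316.8 CPM. The log2 ratio was −0.36 (SE 0.12, 95% interval −0.63 to −0.09), with an adjusted p of 0.0712 in edgeR (p = 0.0145 unadjusted), and an exact two-sided permutation test gave 0.0286, the smallest p that 4 against 4 libraries allow. The call depended on the tool and on 1 library. Ctsh passed with DESeq2 (−0.37, adjusted p = 0.0233), by limma voom (−0.33, adjusted p = 0.0432), after library size scaling alone (−0.81, adjusted p = 0.0325) and without QZ1-hi replicate 1 (−0.44, adjusted p = 0.0381, edgeR), and its adjusted p was between 0.0233 and 0.178 over 18 alternatives. With library size alone the populations overlapped. Ctsh varied least of the cathepsins between libraries of a population, with an SD of log2 CPM of 0.15, against a median of 0.36 over all genes.

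Markers of the lung epithelium did not move in 1 direction beside Ctsh. Of 6 alveolar type 2 markers, 2 were higher in QZ1-hi and 0 lower: the surfactant gene Sftpc rose by 0.78 on the log2 scale (SE 0.21, adjusted p = 0.0231, edgeR) and the phosphate transporter gene Slc34a2 by 0.88 (SE 0.22, adjusted p = 0.0165, edgeR). Both calls were lost with library size alone (0.37 and 0.47) and without QZ1-lo replicate 2 (adjusted p = 0.0591 and 0.0507), and that of Sftpc also without QZ1-lo replicate 1 or 4. Napsa, the aspartic protease that acts with cathepsin H on surfactant protein B, had a log2 ratio of 0.12 (SE 0.16, adjusted p = 0.695, edgeR). Markers of alveolar type 1 cells (4 of 4), club cells (3 of 3) and ciliated cells (4 of 4) were lower. Their summed CPM was 368 to 585 in QZ1-hi and 764 to 933 in QZ1-lo for alveolar type 1, 311 to 973 and 1389 to 3998 for club, and 64.5 to 182 and 293 to 558 for ciliated cells. None of these markers was at 0 in any population. Their part in the Ctsh values was not tested.

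Ctsd and Ctse are the aspartic members. Ctsd (Entrez Gene 13033, chr 7, 142375911 to 142388038), the main aspartic protease of lysosomes, had 1269, 1176, 986 and 2043 CPM in the QZ1-hi libraries and 1222, 1036, 801 and 1488 CPM in the QZ1-lo libraries. Replicate 4 was the highest and replicate 3 the lowest of each population, and the ranges overlapped broadly. Its means were 1369 ± 465 and 1137 ± 291 CPM (SD, n = 4 each), a log2 ratio of 0.27 (SE 0.24, 95% interval −0.26 to 0.80, adjusted p = 0.530, edgeR). Of its exonic stretches of 50 bases, 32.4% also occur in Gm49369, an overlapping gene model on the same strand, so the counting could have split or dropped some of its reads. Ctse (Entrez Gene 13034, chr 1, 131638306 to 131675505), an endosomal aspartic protease known from stomach and immune cells, had 4.79, 3.61, 1.503 and 2.44 CPM in QZ1-hi and 4.83, 5.49, 8.14 and 2.78 CPM in QZ1-lo. Those values rest on 253 counts over the QZ1-hi and 590 over the QZ1-lo libraries, at least 26 in each. The log2 ratio of Ctse was −0.78 (SE 0.42, 95% interval −1.70 to 0.14, adjusted p = 0.256, edgeR), the estimate furthest from 0 on the list, with ranges that overlapped.

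Ctss (Entrez Gene 13040, chr 3, 95526786 to 95556403) encodes an elastin-degrading cysteine protease that also cuts the MHC class II invariant chain and stays active at neutral pH. It had 785, 980, 814 and 1827 CPM in QZ1-hi and 723, 809, 563 and 1282 CPM in QZ1-lo. Replicate 4 was far above the other libraries of each population, and the ranges of the populations overlapped. The means were 1101 ± 491 and 844 ± 309 CPM (SD, n = 4 each), a log2 ratio of 0.38 (SE 0.30, 95% interval −0.28 to 1.05, adjusted p = 0.463, edgeR). Ctsc (Entrez Gene 13032, chr 7, 88278085 to 88310888) encodes the dipeptidyl peptidase that activates the serine proteases of immune cell granules. Its libraries, too, were highest in replicate 4, with 205, 208, 174 and 286 CPM in QZ1-hi and 177, 190, 147 and 233 CPM in QZ1-lo. Its log2 ratio was 0.22 (SE 0.18, 95% interval −0.17 to 0.61, adjusted p = 0.467, edgeR). Of the 8 granule serine protease genes listed, Ctsg was at 0 counts in every library, and only Gzma and Gzmb passed the filter, neither of them called (0 of 2 also at an unadjusted p under 0.05, and 0 by DESeq2 and limma voom).

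Ctsk, Ctsl and Ctsb are cysteine proteases with broad reach, and they shared an order of libraries. It was that of Ctsd and Ctsa in QZ1-hi, but in QZ1-lo replicate 1 was highest in place of replicate 4. Ctsk (Entrez Gene 13038, chr 3, 95499256 to 95509362) lies next to Ctss and encodes the collagen-degrading protease of osteoclasts. It had 132, 55.0, 42.3 and 139 CPM in QZ1-hi and 99.8, 50.04, 37.1 and 96.0 CPM in QZ1-lo. Replicates 1 and 4 of each population thus lay well above replicates 2 and 3. This was the largest spread of log2 CPM on the list (SD 0.79 within the populations), beside which the log2 ratio of 0.38 (SE 0.41, 95% interval −0.53 to 1.29, adjusted p = 0.612, edgeR) was small. Ctsl (Entrez Gene 13039, chr 13, 64359337 to 64370890), a lysosomal endopeptidase, had 221, 162, 133 and 241 CPM in QZ1-hi and 187, 101, 89.3 and 159 CPM in QZ1-lo. With 189 ± 50.03 against 134 ± 46.8 CPM (SD, n = 4 each), it had the largest positive log2 ratio on the list, 0.50 (SE 0.25, 95% interval −0.06 to 1.06, adjusted p = 0.229, edgeR). Exons of Ctsl overlap Gm47123 on the opposite strand, with 26.3% of its 50-base stretches shared, and the strand setting of the counting was not given in the sources used here. Ctsb (Entrez Gene 13030, chr 14, 63122462 to 63145923), which acts as an endopeptidase and as a carboxypeptidase, had 598, 496, 372 and 758 CPM in QZ1-hi and 571, 405, 299 and 530 CPM in QZ1-lo. Its log2 ratio was 0.30 (SE 0.24, 95% interval −0.23 to 0.83, adjusted p = 0.467, edgeR), and 12.1% of its stretches are shared, most with Fdft1 on the opposite strand.

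Ctsz (Entrez Gene 64138, chr 2, 174427493 to 174439039), the gene of the carboxypeptidase also called cathepsin X, had 237, 175, 178 and 315 CPM in QZ1-hi and 225, 186, 138 and 253 CPM in QZ1-lo. Its log2 ratio was 0.18 (SE 0.22, 95% interval −0.32 to 0.67, adjusted p = 0.677, edgeR). QZ1-hi replicate 4 decided its sign, since the value was −0.0049 without that library. Ctsa (Entrez Gene 19025, chr 2, 164832873 to 164841032), the serine carboxypeptidase that protects neuraminidase 1 and beta-galactosidase in the lysosome, had 138, 121, 108 and 191 CPM in QZ1-hi and 111, 109, 93.2 and 140 CPM in QZ1-lo. The log2 ratio was 0.30 (SE 0.19, 95% interval −0.11 to 0.71, adjusted p = 0.330, edgeR). The partners of cathepsin A did not pass either. Neu1 had a log2 ratio of −0.07 (SE 0.15, adjusted p = 0.818, edgeR) and Glb1 of 0.34 (SE 0.20, adjusted p = 0.298, edgeR). Exons of Ctsa overlap Neurl2 and Pltp on the opposite strand, with 11.6% of its stretches shared.

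Levels of different genes were compared per length, as CPM per kilobase of exon (RefSeq-linked transcripts in GENCODE M21). In this measure Ctss stood first, at 811 ± 362 in QZ1-hi and 622 ± 227 in QZ1-lo (SD, n = 4 each), and Ctsd second, at 643 ± 219 and 534 ± 137. Their order was not fixed, as Ctss was above Ctsd in 6 of 8 libraries and below it in replicate 1 of each population. Ctsh came next, at 168 ± 21.01 in QZ1-hi and 215 ± 16.9 in QZ1-lo, above Ctsz in 7 of 8 libraries. Ctsz, Ctsb, Ctsl and Ctsk then followed each other in that order in all 8 libraries, from 157 ± 45.6 for Ctsz to 60.9 ± 33.4 for Ctsk in QZ1-hi. Ctsk was above Ctsc in 4 of 8 libraries, so these neighbours did not differ beyond their spread. Ctsc was above Ctsa in all 8 libraries, although by less than the SD between libraries, at 41.0 ± 8.97 and 38.0 ± 9.96 in QZ1-hi. Ctse was last in every library, at 1.45 ± 0.67 in QZ1-hi and 2.50 ± 1.04 in QZ1-lo.

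As a share of the summed cathepsin level per kilobase, which does not depend on the scaling between libraries, Ctss and Ctsd made up most of every library. Ctss took 37.3% ± 5.37 in QZ1-hi and 34.2% ± 4.72 in QZ1-lo (SD, n = 4 each), and Ctsd took 30.1% ± 0.64 and 29.8% ± 1.22. The Ctsd share varied less than that of Ctss, between 28.7% and 31.5% over all 8 libraries. Ctsh took 8.44% ± 2.44 in QZ1-hi and 12.7% ± 3.81 in QZ1-lo, from 4.82% in QZ1-hi replicate 4 to 18.1% in QZ1-lo replicate 3. The populations overlapped in that share, because QZ1-lo replicate 4 was at 9.08% and the first 3 QZ1-hi libraries lay between 9.31% and 10.1%. Set against Ctsd in the same library, Ctsh was between 12.0 and 24.9 CPM per 100 CPM of Ctsd in QZ1-hi and between 23.4 and 47.9 in QZ1-lo. Ctsk moved between 1.78% and 4.49% of the sum, with replicate 1 highest in each population. Shares of Ctsa and Ctsc stayed between 1.60% and 2.18%. Without division by length the order changed, with mean shares of 32.7% for Ctsd, 25.9% for Ctss, 13.4% for Ctsb, 5.34% for Ctsc and 3.38% for Ctsa in QZ1-hi.

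**Figure D3:**
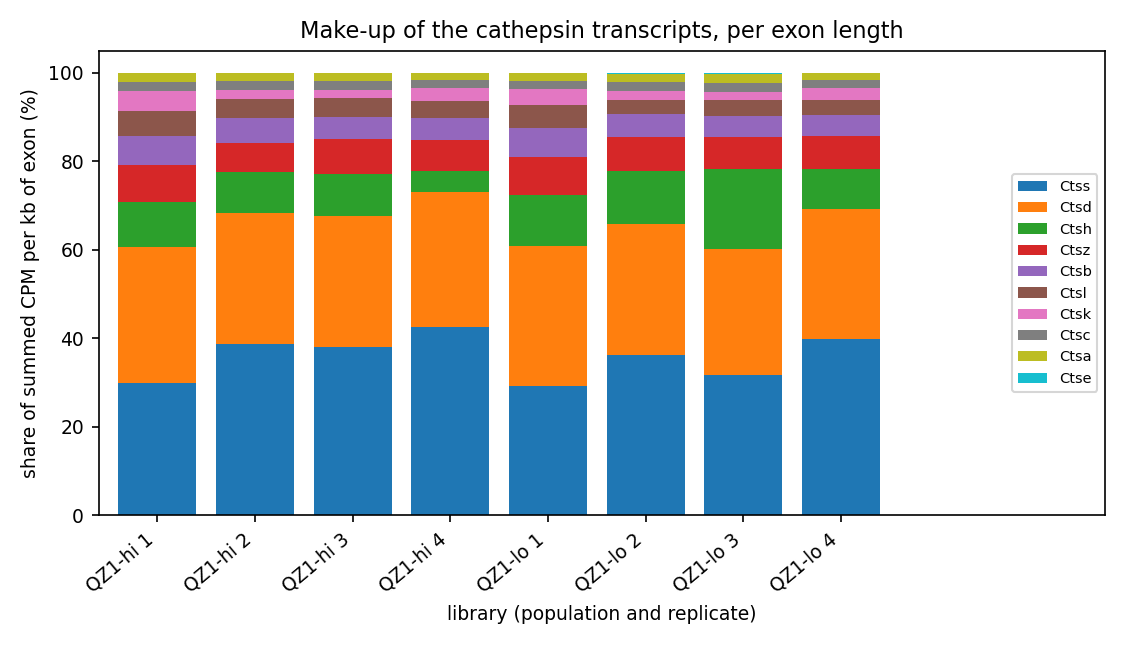
Share of each cathepsin in the summed CPM per kilobase of exon, in percent, for each of the 4 QZ1-hi and 4 QZ1-lo libraries. Ctss and Ctsd fill most of every bar, the Ctsd segment stays between 28.7% and 31.5%, and the Ctsh segment is narrowest in QZ1-hi replicate 4 (4.82%) and widest in QZ1-lo replicate 3 (18.1%).

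The spread between libraries of a population had a shape of its own. SDs of log2 CPM within the populations ran from 0.15 to 0.79 over the members, and 7 of 10 exceeded the median of all genes. Replicate 4 was the highest QZ1-hi library for 8 cathepsins and the highest QZ1-lo library for 5, and replicate 3 was the lowest QZ1-lo library for 8. These library orders hold for TMM-scaled CPM and were not recomputed under other scalings. The TMM factor, by which CPM are divided, was 0.660 in QZ1-hi replicate 4, the lowest of the 8 libraries, and 1.10 in QZ1-hi replicate 1. Pearson's r of log2 CPM over the 8 libraries lay between 0.59 and 0.97 for the 28 pairs among the 8 cathepsins other than Ctse and Ctsh. For the 16 pairs of Ctse or Ctsh with these 8 it lay between −0.60 and −0.11, and it was 0.80 between Ctse and Ctsh. All pairs share the same libraries, scaling and population split, so these values describe likeness alone. Within the group of 8, Ctss and Ctsc had an r of 0.96, Ctsa and Ctsd 0.97, Ctsb and Ctsl 0.94, and Ctss and Ctsk 0.59, although Ctsk lies next to Ctss on chromosome 3.

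Most macrophage markers were also highest in replicate 4. This was so for 12 of 13 in QZ1-hi (C1qc was highest in replicate 1) and for 9 of 13 in QZ1-lo (C1qa, C1qb and C1qc were highest in replicate 1 and Cd14 in replicate 2). All 13 markers of the list passed the filter, 0 were called by edgeR, DESeq2 or limma voom (1 at an unadjusted p under 0.05 in edgeR), and 12 had estimates above 0 (median log2 ratio 0.35). Their summed level was 3377, 3883, 3463 and 7278 CPM in QZ1-hi replicates 1 to 4 and 2704, 3258, 2406 and 4812 CPM in QZ1-lo replicates 1 to 4. Replicate 4 was highest in each population, as it was for Ctss, Ctsc, Ctsa, Ctsd and Ctsz, and QZ1-lo replicate 3 was the lowest library of all. Ptprc, which encodes the CD45 that the sort selected against, was at 131 ± 64.2 and 125 ± 30.0 CPM (SD, n = 4 each), and no marker of the list was at 0. The lysozyme gene Lyz2 made up most of the sum, at 3600 ± 1453 and 2534 ± 859 CPM (SD, n = 4 each). Without both replicate 4 libraries, an alternative chosen after seeing these sums, 0 cathepsins were called, and the log2 ratios were 0.28 for Ctss, 0.15 for Ctsd and −0.33 for Ctsh. Leaving out QZ1-hi replicate 4 alone moved Ctss to 0.05, Ctsd to 0.03, Ctsa and Ctsb to 0.14 each, Ctsc to 0.09, Ctsk to 0.12 and Ctsl to 0.38. Leaving out QZ1-lo replicate 4 alone moved the same genes up. Ctss was then at 0.66, Ctsd at 0.43, Ctsa at 0.42, Ctsb at 0.39, Ctsc at 0.35, Ctsk at 0.56 and Ctsl at 0.59, none of them called. Replicate 4 was not highest for macrophage markers alone. The summed red blood cell markers were highest in it in each population (1006 and 3097 CPM). The summed neutrophil markers were highest in QZ1-hi replicate 4 (315 CPM) but, in QZ1-lo, in replicate 2 (313 CPM). The part of macrophage or other blood cell transcripts in the cathepsin levels was not tested.

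**Figure D4:**
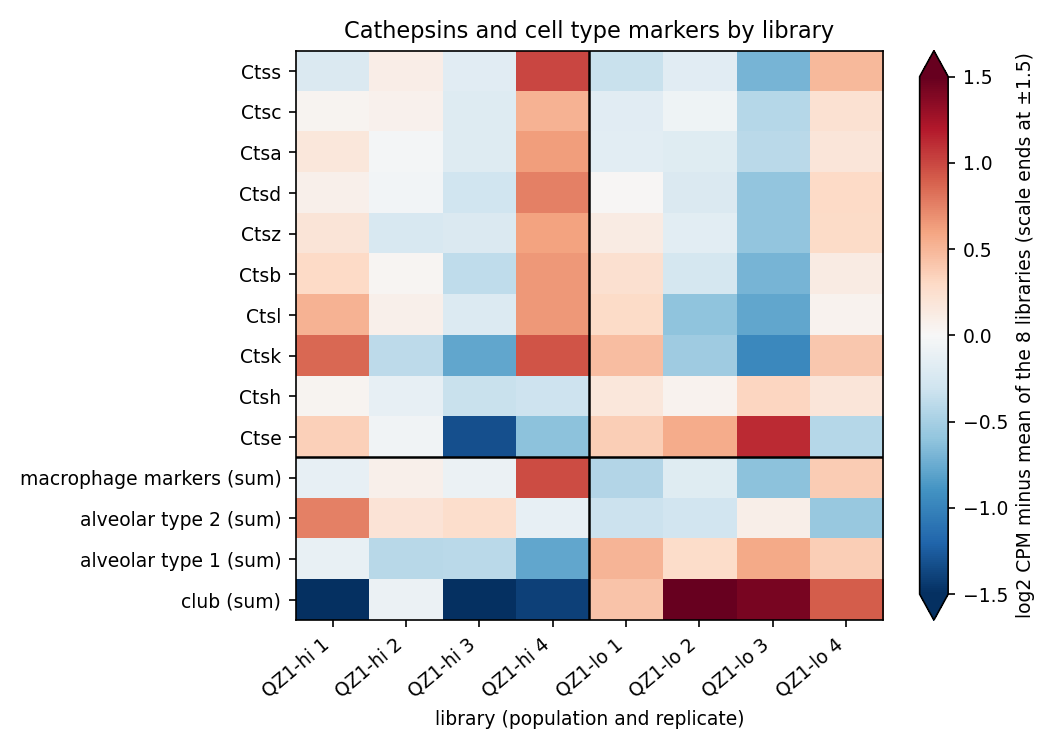
Log2 CPM minus the mean of the 8 libraries for each cathepsin and for the summed CPM of the macrophage, alveolar type 2, alveolar type 1 and club cell markers, with QZ1-hi libraries left and QZ1-lo libraries right of the line (colors end at ±1.5, which the club row exceeds). Ctss, Ctsc, Ctsa, Ctsd and Ctsz are highest in replicate 4 of each population, as is the macrophage marker sum (7278 and 4812 CPM). Ctsb, Ctsl and Ctsk are high in replicates 1 and 4, and Ctsh and Ctse are higher in QZ1-lo replicate 3 than in any other library. These orders are of TMM-scaled CPM.

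The gene nearest to each member by that correlation was read off as a description. Nearest to Ctss were the myeloid receptor genes Pira1 and Clec7a (r = 0.99 each), and nearest to Ctsd were Arhgap25 and the chemokine gene Ccl6 (r = 0.997 each). Ccl6 ran from 816 to 2508 CPM in QZ1-hi and from 584 to 1650 CPM in QZ1-lo. Ctsc was closest to the lipoprotein lipase gene Lpl (r = 0.99) and to Slc30a7 (r = 0.99), which with Abhd12 was also closest to Ctsa (r = 0.97 each). Ctsb was closest to Sh3kbp1 and to the osteopontin gene Spp1 (r = 0.99 each), and Ctsk to the chemokine gene Ccl9 (r = 0.99) and to Sema4a (r = 0.97). Spp1 had 667, 412, 239 and 808 CPM in QZ1-hi and 470, 273, 135 and 437 CPM in QZ1-lo, the same order of libraries as Ctsb within each population. Ctsl was closest to an identifier with no symbol (Entrez Gene 100504494, r = 0.99) and to the lysosomal glucuronidase gene Gusb (r = 0.98), and Ctsz to Uso1 and Ces2d-ps (r = 0.98 each). None of these genes passed the test between the populations. Ctse was closest to Wdr54 and Wbp2 (r = 0.98 each), neither of them called, and Ctsh to the ubiquitin ligase gene Cblc and the aldo-keto reductase gene Akr1b8 (r = 0.98 each). Both neighbors of Ctsh were lower in QZ1-hi, with log2 ratios of −1.16 (SE 0.34, adjusted p = 0.0359, edgeR) for Cblc and −0.92 (SE 0.18, adjusted p = 0.00516, edgeR) for Akr1b8. The Cblc call was lost in 6 of the 8 fits without 1 library.

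Of 13 cathepsin genes outside the list, 2 passed the test. Ctsf (Entrez Gene 56464), a cysteine cathepsin with an extended propeptide, had 6.78, 6.42, 11.0 and 8.82 CPM in QZ1-hi and 3.01, 3.38, 1.81 and 2.95 CPM in QZ1-lo, with no overlap. It rose by 1.57 on the log2 scale (SE 0.29, 95% interval 0.93 to 2.20, adjusted p = 0.00334, edgeR), and was called under all 18 alternatives (1.12 to 1.67). Ctso (Entrez Gene 229445) had 14.7, 20.2, 29.5 and 21.4 CPM in QZ1-hi and 15.2, 13.4, 10.5 and 12.9 CPM in QZ1-lo. QZ1-hi replicate 1 lay within the QZ1-lo range. Its rise of 0.72 (SE 0.21, adjusted p = 0.0389, edgeR) passed, but was lost in 10 of 18 alternatives, among them 6 of the 8 fits without 1 library, with adjusted p-values between 0.0141 and 0.559. Ctsw, a cysteine protease of cytotoxic lymphocytes, had a log2 ratio of −0.68 (SE 0.69, adjusted p = 0.588, edgeR). Of the 9 placental cathepsin genes, 8 had no count in any library, and 0 passed the filter.

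Markers of the cell types enriched in QZ1-hi stood beside these values. Endothelial markers (8 of 8), fibroblast markers (6 of 7) and mesothelial markers (3 of 3) were higher in QZ1-hi, as were Pdgfrb of 5 pericyte markers and Myh11 and Tagln of 4 smooth muscle markers, of which Cnn1 was lower. Summed fibroblast markers were 1574 to 3042 CPM in QZ1-hi and 38.8 to 354 CPM in QZ1-lo, and endothelial markers 921 to 2189 and 70.6 to 281 CPM. QZ1-hi replicate 3 had the highest sum of both lists and the highest Ctsf and Ctso, and replicate 4 had the lowest sum of both lists among the QZ1-hi libraries and the highest summed cathepsin CPM, 6049 against 3052 to 3906 in the others. The part of these cells in the cathepsin values was not tested. Of the blood cell lists, 0 of 5 lymphocyte and 0 of 4 red blood cell markers tested were called by the 3 tools (0 and 3 at an unadjusted p under 0.05 in edgeR), and of 4 neutrophil markers tested Csf3r was lower.

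Natural inhibitors of the cysteine cathepsins did not pass the main test in edgeR. Of 14 cystatin family genes, 6 passed the filter and 0 were called by edgeR (1 at an unadjusted p under 0.05). DESeq2 and limma voom each called 1, Kng2, higher in QZ1-hi. Cst3, the secreted cystatin C, was at 91.4 ± 3.21 and 81.9 ± 12.2 CPM (SD, n = 4 each), and Cstb, the cytosolic cystatin B, at 29.8 ± 7.15 and 33.6 ± 4.77 CPM. The kininogen gene Kng2 came nearest, with 35.7 ± 11.4 and 22.0 ± 3.85 CPM (SD, n = 4 each) and a log2 ratio of 0.70 (SE 0.23, adjusted p = 0.0580, edgeR). It passed in 5 of 18 alternatives, DESeq2 and limma voom included, among them edgeR without QZ1-hi replicate 4 (0.90, adjusted p = 0.00887). Among legumain and other aspartic proteases, 2 of 5 genes tested were higher. Bace2, a beta-secretase, had 4.53, 5.53, 7.98 and 2.44 CPM in QZ1-hi and between 1.14 and 2.00 CPM in QZ1-lo, a rise of 1.65 (SE 0.40, adjusted p = 0.0143, edgeR). That call was lost with library size alone (adjusted p = 0.0802) and without QZ1-hi replicate 3 (adjusted p = 0.0641). Bace1 rose by 0.57 (SE 0.17, adjusted p = 0.0440, edgeR), a call that 11 of 18 alternatives lost. Lgmn, the legumain that processes several cathepsins, had a log2 ratio of 0.36 (SE 0.23, adjusted p = 0.348, edgeR).

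Of 8 genes of mannose 6-phosphate tagging and sorting, the route by which cathepsins reach the lysosome, 0 were higher and 1 was lower (median log2 ratio 0.06). The sorting receptor gene Sorl1 had 76.1, 96.8, 64.8 and 68.9 CPM in QZ1-hi and 152, 155, 148 and 131 CPM in QZ1-lo, with no overlap. It fell by 0.93 on the log2 scale (SE 0.14, adjusted p = 0.00109, edgeR), and was called under all 18 alternatives. The mannose 6-phosphate receptor genes did not pass. Igf2r had a log2 ratio of −0.40 (SE 0.15, adjusted p = 0.0989, edgeR; −0.87 and 0.0194 with library size alone) and M6pr of 0.08 (SE 0.12, adjusted p = 0.717, edgeR). Among 22 genes of the lysosomal membrane and its acidification, which include the subunits of the proton pump, 1 was higher (median 0.04). This was the calcium channel gene Mcoln1, which rose by 0.61 (SE 0.18, adjusted p = 0.0387, edgeR), a call that 9 of 18 alternatives lost. Lamp1 and Lamp2 had log2 ratios of 0.06 (SE 0.12) and 0.03 (SE 0.12), and neither was called. With library size alone both, M6pr, Lgmn, Napsa, Glb1, Psap and Cd74 turned to below 0.

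Of 34 other lysosomal hydrolase genes, 7 were higher in QZ1-hi and 0 were lower (median log2 ratio 0.37), where 9.88% of all genes tested were called higher. Whether this list differed from the cathepsins was not tested. Cpq, a carboxypeptidase, had 23.4, 27.7, 32.8 and 19.8 CPM in QZ1-hi and 14.3, 13.9, 14.7 and 9.54 CPM in QZ1-lo. It rose by 0.98 (SE 0.20, adjusted p = 0.00561, edgeR). The sulfatase genes Arsa and Arsb rose by 0.92 and 0.61, the carboxypeptidase genes Prcp and Scpep1 by 0.73 and 0.52, and the thioesterase gene Ppt1 by 0.46, with adjusted p-values between 0.0185 and 0.0479 (edgeR). Each of these 6 calls was lost with library size alone, where Ppt1 turned to −0.03, and those of Arsa, Arsb, Ppt1, Prcp and Scpep1 were also lost without some single libraries. Psap, the precursor of the saposins, had a log2 ratio of 0.40 (SE 0.30, adjusted p = 0.431, edgeR).

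Regulators and the antigen presentation route in which Ctss and Ctsl act did not pass. Of the MiT/TFE factors, which bind extended E-boxes, 0 of 4 were called by edgeR, DESeq2 or limma voom (0 at an unadjusted p under 0.05). Mitf had 16.8, 20.0, 18.5 and 39.0 CPM in QZ1-hi and 15.5, 13.3, 10.5 and 23.2 CPM in QZ1-lo, and Tfec had 14.3, 9.68, 5.09 and 31.9 CPM in QZ1-hi and 8.65, 12.6, 3.84 and 20.1 CPM in QZ1-lo. Both were highest in replicate 4 of each population. Of 10 MHC class II genes, 0 were called by the 3 tools (3 at an unadjusted p under 0.05 in edgeR), with 9 estimates above 0 and a median log2 ratio of 0.27. Cd74, the invariant chain, was at 1338 ± 133 and 1202 ± 97.4 CPM (SD, n = 4 each). Its QZ1-hi libraries all exceeded its QZ1-lo libraries, by a narrow margin of 1264 against 1259 CPM, with a log2 ratio of 0.16 (SE 0.12, adjusted p = 0.469, edgeR).

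**Figure D5:**
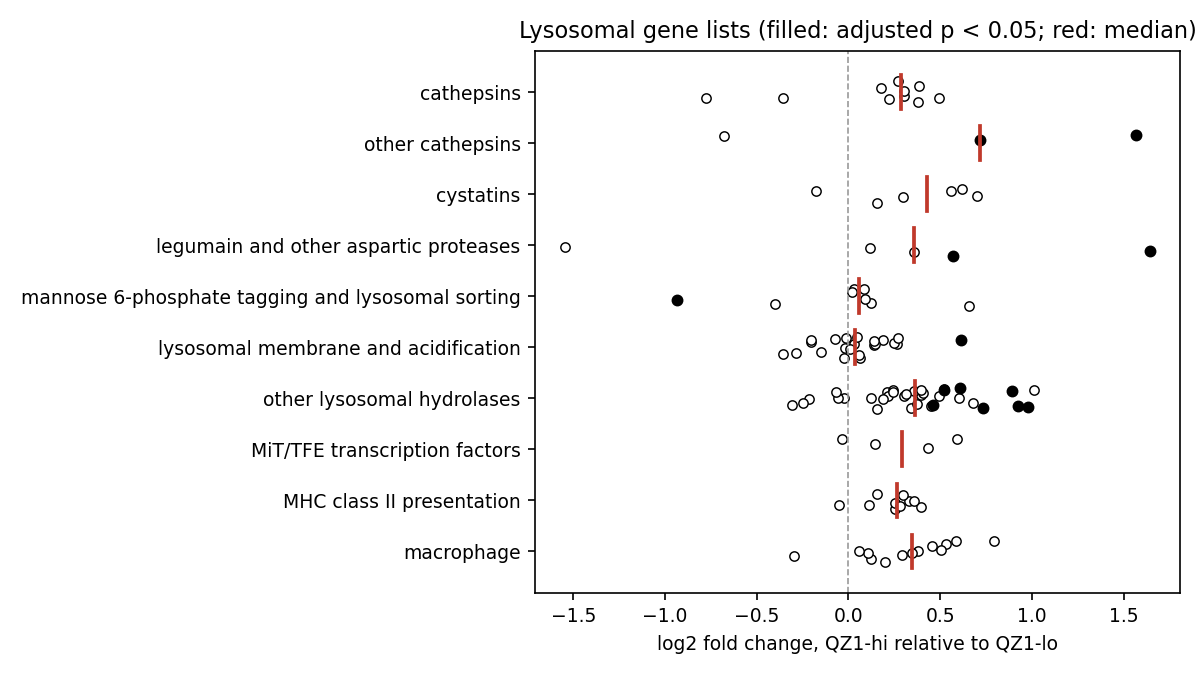
Log2 ratio of QZ1-hi relative to QZ1-lo for each gene tested, by list (one row per list, filled points passed an adjusted p under 0.05 in edgeR, red lines are list medians). The 10 cathepsins hold 0 filled points, the other lysosomal hydrolases 7 of 34 and the macrophage markers 0 of 13. Scaling by library size alone moved the median of all genes tested from 0.02 to −0.44.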

How the data were processed

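Raw counts per gene, as the authors deposited them, were made with Rsubread from SMARTer stranded total RNA libraries sequenced on a NextSeq500, on build mm10 per the submitters' processing notes. The aligner, annotation and strand setting are not given in the sources used here. Of 27179 Entrez Gene identifiers, 25293 had a symbol. Testing used edgeR 4.0.16 in R 4.3.3 (TMM, filterByExpr with a minimum count of 10 and a minimum total of 15, quasi-likelihood test, Benjamini-Hochberg, threshold 0.05). CPM are TMM-scaled, each SE was the absolute log2 fold change over the root of F, and intervals use the fit's degrees of freedom. Correlations used log2 CPM with a prior count of 2. Alternatives were DESeq2 1.42.0, limma 3.58.1 (voom with quality weights), other scalings, filters, shrinkage and thresholds, removal of 48 mitochondrial and ribosomal RNA genes, and each library left out. Leaving out both replicate 4 libraries was added after the data were seen. The members and lists were chosen with earlier results of these data known. Genes named are the members, list genes and the 2 nearest genes of each member. On simulated data with 15583 genes, all of the same dispersion (0.113), edgeR called 96 of 100 genes changed by log2 2, 21 of 100 changed by log2 1, and 8 unchanged genes. The values of 1 hydrolase gene counted among the calls are not reported here.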

Additional observations from a re-analysis of the deposited data

Results flagged for a closer look

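In 4 cases 1 library stood apart from the other 3 of its population by more than Dixon's 95% critical value, out of 46 sets of gene values and 20 sets of shares, where chance gives about 1 in 20. Mcoln1 was at 25.6 CPM in QZ1-hi replicate 4, against 16.8 to 17.9 CPM in the other QZ1-hi libraries, and its call was lost in 6 of the 8 fits without 1 library, that one included (0.48, adjusted p = 0.0784, edgeR). Cpq was at 9.54 CPM in QZ1-lo replicate 4, against 13.9 to 14.7 CPM in the others, and its call held without each library in turn. The share of Ctsh in the summed cathepsin level was 4.82% in QZ1-hi replicate 4, against 9.31% to 10.1% in the others, and the share of Ctsl was 5.21% in QZ1-lo replicate 1, against 3.10% to 3.45%.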

How the results depend on the processing

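Every listed cathepsin had at least 26 counts in every library. In simulated data of 4 against 4 libraries, 21 of 100 genes changed by log2 1 were called. Every simulated gene had the same dispersion (0.113), while the members differed in spread, so this gives no power for a single member. Upper 95% bounds were above log2 1 for Ctsk (1.29), Ctsl (1.06) and Ctss (1.05). Those of Ctsa, Ctsb, Ctsc, Ctsd and Ctsz lay between 0.61 and 0.83, and the lower bounds of Ctse and Ctsh were −1.70 and −0.63. Scaling by library size alone moved the counts over all genes from 1540 higher and 1280 lower to 882 and 2509, and an adjusted p under 0.01 to 902 and 665. No alternative called a cathepsin higher. The number called lower was 1 (Ctsh) with DESeq2, with limma voom and with library size alone, and 0 to 1 without each library in turn. With library size alone the number of cathepsins without overlap was 0 in place of 1, and the log2 fold changes of Ctsa (−0.19), Ctsb (−0.20), Ctsc (−0.27), Ctsd (−0.25), Ctsk (−0.11), Ctsl (−0.0017), Ctss (−0.15), Ctsz (−0.31), Ppt1 (−0.032), Napsa (−0.32), Glb1 (−0.11), Cst3 (−0.29), Lgmn (−0.15), M6pr (−0.38), Lamp1 (−0.42), Lamp2 (−0.46), Psap (−0.11), Tfec (−0.093) and Cd74 (−0.32) turned to below 0. The median of all genes tested was then −0.44, that of the macrophage markers −0.17, of the other hydrolases −0.12 and of the MHC class II genes −0.22. Without each library in turn Ctsz ranged from −0.0049 to 0.31, Lamp2 from −0.020 to 0.064 (below 0 also without QZ1-lo replicate 2, at −0.012) and Tfec from −0.20 to 0.87, each lowest without QZ1-hi replicate 4, and without both replicate 4 libraries Lamp1 was −0.0097 and Lamp2 −0.050. The other gene values recomputed kept their direction. No paired analysis was possible because the labels give no replicate numbers and no mouse for a library.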
